A study of Rattus norvegicus with 7 samples.

Results

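TEAD1 is the DNA-binding partner of the Hippo pathway coactivators YAP and TAZ, which carry no DNA-binding domain of their own. In Schwann cells, the myelin-forming glia of peripheral nerve, YAP and TAZ working through TEAD1 are known to be needed for proliferation, for the sorting of axons and for myelination. YY1 is a zinc finger protein that binds promoters and enhancers and is itself required for peripheral myelination. The regions described here are H3K27ac peaks (acetylation of lysine 27 on histone H3, found at promoters and enhancers in use) that held a TEAD1 peak and no YY1 peak in S16, a rat Schwann cell line. They numbered 2405 of the 99514 H3K27ac peaks outside the mitochondrial genome. A region was a member when at least 1 bp of it was covered by a TEAD1 peak and no base by a YY1 peak.

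The series holds 7 samples, and the 6 peak lists among their files were analysed. Peaks of NR2F2, YY1, RXRG and TEAD1 came from CUT&RUN in untreated S16 cells, a method that brings a nuclease to the antibody-bound protein in intact nuclei and cuts out the DNA beneath it. H3K27ac came from ChIP-seq in the same line, and SREBP1 from ChIP-seq in wild-type sciatic nerve at postnatal day 15, a tissue that holds other cell types beside Schwann cells. The sample of nerve input was not analysed here. Each target had 1 library, so that no spread between cultures or animals could be computed and no test was made. Printed intervals are 95% Wilson intervals of shares and cover counting error over regions only. Read depth is unknown. The files give positions on build rn5, and no sequence or gene annotation of that build was used here, so that regions are named by position, counted from 1.

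The members were chosen by the positions of peaks in the H3K27ac, TEAD1 and YY1 lists, and values from these lists are given as descriptions. Of all H3K27ac peaks, 19.0% (18893) held TEAD1, and 16488 of these also held YY1. The 2405 without YY1 covered 2.50 Mb. They held 2429 of the 20182 acetylated TEAD1 peaks. A single TEAD1 peak lay in 2380 members and 2 lay in the remaining 25. The TEAD1 peak at chr11:87439932-87440955 touched 2 members. It was also the widest TEAD1 peak of all the members, at 1024 bp, and covered the gap between the neighbouring acetylated regions chr11:87439292-87440015 and chr11:87440946-87441715.

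The other mapped factors were not used by the rule. NR2F2, an orphan nuclear receptor also called COUP-TFII, was present in 805 members or 33.5% (31.6 to 35.4%), against 25.5% of all H3K27ac peaks. RXRG, the gamma form of the retinoid X receptor, which pairs with other nuclear receptors on DNA, was present in 480 members or 20.0% (18.4 to 21.6%), against 20.5% of all H3K27ac peaks, so that over all widths its share was near the background. SREBP1, a regulator of genes for lipid synthesis, was present in 273 members or 11.4% (10.1 to 12.7%), against 15.0%. TEAD1 was the sole mapped factor in 1276 members or 53.1% (51.1 to 55.0%), while 59.5% of all H3K27ac peaks held none of NR2F2, RXRG and SREBP1. In the acetylated regions that held both TEAD1 and YY1 the shares were 53.9% for NR2F2, 39.5% for RXRG and 42.7% for SREBP1. In those with neither TEAD1 nor YY1 they were 15.7%, 12.4% and 4.39%. Over all widths the share in the members thus lay between these classes for each of the 3 factors. Acetylated regions with YY1 and no TEAD1 held NR2F2 in 37.2%, RXRG in 36.4% and SREBP1 in 33.0%, above the members for each. The regions with both TEAD1 and YY1 were also the widest, with a median of 1409 bp. It was 1027 bp with YY1 and no TEAD1, 860 bp for the members and 523 bp with neither. Within width classes (below) the members still lay between the regions with both and those with neither for NR2F2 and SREBP1. For RXRG they did so except in the widest class. Among members with a TEAD1 peak wider than the median of the TEAD1 list the share with NR2F2 was 20.8%, as given among the alternatives.

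The combinations of factors in the members were uneven. NR2F2 without RXRG or SREBP1 was found in 390 members and NR2F2 together with RXRG in 392. SREBP1 without the nuclear receptors was found in 243, and RXRG alone in 74. NR2F2 and SREBP1 met without RXRG in 16 members, RXRG and SREBP1 without NR2F2 in 7, and all 3 in 7. Of the 480 members with RXRG, 399 (83.1%) also held NR2F2, against 406 of 1925 (21.1%) of those without RXRG, an odds ratio of 18.4. In the regions with TEAD1 and YY1, 85.1% of those with RXRG held NR2F2, an odds ratio of 11.3, and in those with neither the odds ratio was 5.82. In 4 classes of region width, from narrow to wide, the odds ratio was 11.3, 33.7, 33.0 and 12.1 in the members and 44.3, 35.3, 15.2 and 7.75 with TEAD1 and YY1. The members were lower in the narrowest class, close in the second and higher in the wider ones. Those of the narrowest class rest on few regions with RXRG and no NR2F2, 9 in the members and 8 with TEAD1 and YY1. No intervals were computed for the odds ratios. RXRG in the members was thus mostly found where NR2F2 was found too, and the values of the 3 classes come from the same libraries.

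**Figure D1:**
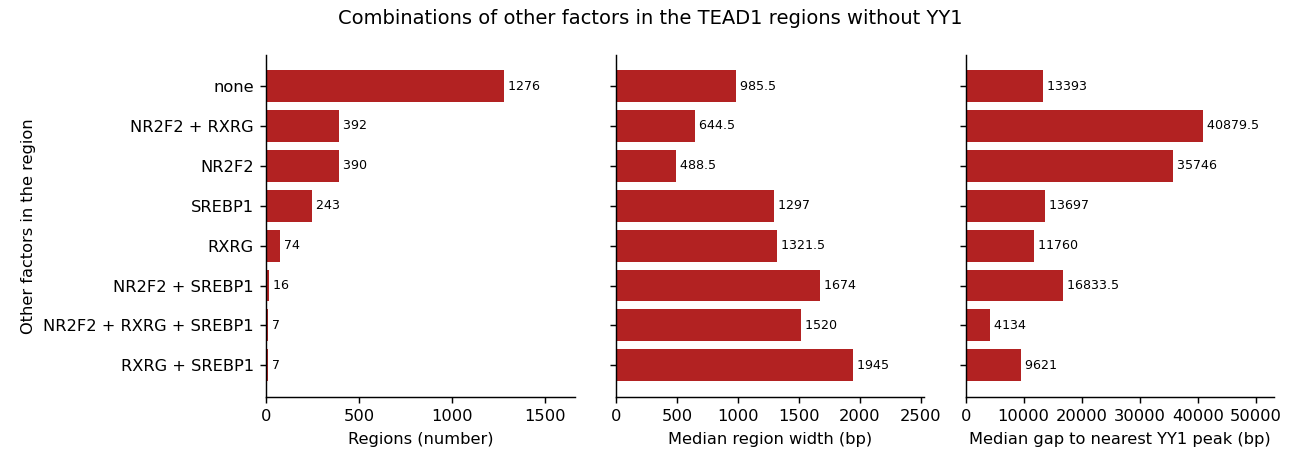
Number of regions, median width and median gap to the nearest YY1 peak for the 8 combinations of NR2F2, RXRG and SREBP1 in the 2405 acetylated TEAD1 regions without YY1. Bars are counts or medians over regions. The regions with NR2F2 alone or with NR2F2 and RXRG are the narrowest, at 488.5 and 644.5 bp, and lie farthest from YY1, at 35746 and 40879.5 bp.

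Nerve SREBP1 peaks and S16 nuclear receptor peaks were found in largely separate members. Tissue and method also differ between these lists and cannot be told apart from the factor. NR2F2 was present in 23 of the 273 members with nerve SREBP1, or 8.42% (5.68 to 12.3%), and in 782 of the 2132 without it, or 36.7% (34.7 to 38.7%), an odds ratio of 0.159. RXRG was present in 14 of 273 (5.13%) and in 466 of 2132 (21.9%), an odds ratio of 0.193. Where YY1 was present beside TEAD1, the odds ratio of NR2F2 with SREBP1 was 1.60 and that of RXRG with SREBP1 was 1.31. Where TEAD1 and YY1 were both absent, they were 0.291 and 0.636. With YY1 and no TEAD1 they were 1.07 and 0.994. Over all widths they were thus clearly below 1 only in the classes without YY1. The same odds ratios over all H3K27ac peaks were not computed. Members with SREBP1 were wide, and within the width classes the odds ratio of NR2F2 with SREBP1 in the members was 0.119, 0.0892, 0.0939 and, in the widest, 0.542. The values before the widest class rest on few regions, with NR2F2 in 2 of 20, 3 of 35 and 3 of 62 members with SREBP1. In the regions with TEAD1 and YY1 the odds ratio was 0.420 and 0.664 in the 2 narrower classes and 1.71 and 1.93 in the 2 wider ones. With YY1 and no TEAD1 it was 0.118, 0.633, 1.05 and 1.54. An odds ratio below 1 was therefore also found in narrow regions with YY1, and in the narrowest without TEAD1 it was close to that of the members.

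Members with NR2F2 were narrow and those with SREBP1 were wide. The median width was 591 bp for members with NR2F2 and 1055 bp for those without. It was 691 against 910 bp with and without RXRG, and in the regions with neither TEAD1 nor YY1 this order was opposite, at 632 against 504 bp. For SREBP1 the order was opposite, with 1320 bp for members that held it and 795.5 bp for the rest. In the regions with both TEAD1 and YY1, those with NR2F2 had a median of 1337 bp and those without 1507 bp, and in the regions with neither the medians were 512 and 526 bp. In these 3 classes the regions with NR2F2 were the narrower ones, and those with SREBP1 the wider ones (1457 against 1360 bp with TEAD1 and YY1, 933 against 508 bp with neither).

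The 4 width classes, set on all H3K27ac peaks so that each holds close to an equal number, ran from 231 to 367 bp, 368 to 737 bp, 738 to 1233 bp and 1234 to 9902 bp. They held 416, 634, 583 and 772 members. NR2F2 was present in 46.4%, 48.9%, 31.9% and 15.0% of these, with intervals of 41.7 to 51.2% in the narrowest class and 12.7 to 17.7% in the widest. In the regions with TEAD1 and YY1 the shares were 48.8%, 61.6%, 58.5% and 50.5%. In the narrowest class the intervals of the members and of the regions with YY1 overlapped (44.0 to 53.6% with YY1), and in the widest they were far apart. Regions with YY1 and no TEAD1 held NR2F2 in 34.4%, 38.9%, 41.2% and 32.6%, below the members in the 2 narrower classes and above them in the wider ones. Regions with neither TEAD1 nor YY1 held NR2F2 in 14.2%, 20.6%, 14.3% and 11.8%. In the widest class the members, at 15.0%, lay close to these regions. All H3K27ac peaks together held NR2F2 in 15.96%, 26.7%, 28.1% and 31.4%, so that the members were above this background in the 2 narrower classes, with overlapping intervals in the third, and below it in the widest.

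RXRG was present in 17.1%, 29.5%, 21.3% and 12.7% of the members from the narrowest to the widest class. The regions with both TEAD1 and YY1 held it in 32.8%, 49.97%, 47.7% and 34.1%, those with neither in 8.13%, 15.2%, 13.7% and 15.2%, and all H3K27ac peaks in 8.95%, 20.7%, 25.6% and 26.7%. The members' share, near the background over all widths, was thus above that of all H3K27ac peaks in the 2 narrower classes and below it in the 2 wider ones. In the widest class the members were also below the regions with neither, but the intervals overlapped (10.5 to 15.2% against 14.5 to 15.9%). SREBP1 was present in 4.81%, 5.52%, 10.6% and 20.2% of the members, against 11.7%, 25.7%, 45.9% and 45.9% with YY1. In every width class the share with SREBP1 in the members was below that with YY1 and above that with neither factor (1.93%, 3.44%, 5.56% and 10.7%), and the intervals did not overlap. In the narrowest class they ran from 3.13 to 7.31% in the members, from 8.98 to 15.2% with YY1 and from 1.77 to 2.12% with neither. All H3K27ac peaks together held SREBP1 in 2.39%, 8.09%, 19.7% and 29.8%. The members were thus above this background in the narrowest class and below it in the others. The sole presence of TEAD1 was found in 47.4%, 44.3%, 55.2% and 61.7% of the members. Of all H3K27ac peaks, 76.9%, 60.9%, 54.8% and 45.5% held none of NR2F2, RXRG and SREBP1. The members were thus below this background in the 2 narrower classes, near it in the third and above it in the widest.

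**Figure D2:**
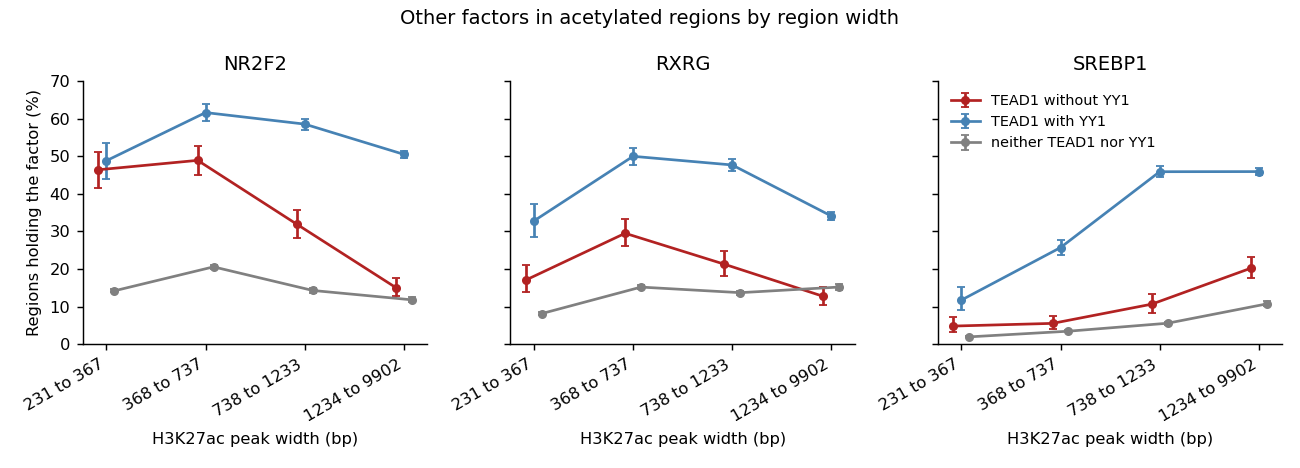
Share of acetylated regions that hold NR2F2, RXRG or SREBP1 in 4 classes of H3K27ac peak width, for regions with TEAD1 without YY1, with TEAD1 and YY1, and with neither. Points are percentages of regions and bars are 95% Wilson intervals. The NR2F2 share of the TEAD1 regions without YY1 is near that of the regions with YY1 in the narrowest class (46.4 and 48.8%) and near that of the regions with neither in the widest (15.0 and 11.8%).

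TEAD1 peaks were narrow in the members. Their median width was 234 bp, with the middle of the distribution from 188 to 320 bp, against 351 bp in acetylated regions with YY1. TEAD1 peaks outside H3K27ac that met no YY1 peak had a median of 205 bp. Within the members the TEAD1 peaks that met an NR2F2 peak had a median of 216 bp and those that did not 246 bp. In the acetylated regions with YY1 the order was opposite, with 380 bp on NR2F2 and 328 bp off it. The TEAD1 peaks on SREBP1 were the wider ones in both classes, at 270 against 231 bp in the members and 398 against 333 bp with YY1. Divided into 4 classes by TEAD1 peak width, from 158 to 189 bp up to 322 to 1024 bp, the members held NR2F2 in 43.2%, 38.4%, 33.7% and 18.5%. The share with TEAD1 as the sole factor was 44.5% in the narrowest and 68.2% in the widest of these classes. The share with NR2F2 was thus lower in each wider class of TEAD1 peak.

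Where a nuclear receptor was present, it mostly lay on the TEAD1 peak itself. Of the 805 members with NR2F2, 736 or 91.4% (89.3 to 93.2%) had an NR2F2 peak that overlapped TEAD1, and the median distance between the midpoints of the nearest peaks was 63 bp. In 531 members (66.0%) it was at most 100 bp. Members with NR2F2 had a median width of 591 bp and the nearest NR2F2 peaks in them one of 377 bp. This leaves little room for the peaks to lie apart. How much overlap the sizes of regions and peaks alone would give was not tested. Of the 480 members with RXRG, 362 or 75.4% had it on TEAD1, with a median distance of 91.25 bp, and of the 273 with SREBP1, 210 or 76.9%, with a median distance of 204 bp. In the regions with YY1 these shares were 91.5%, 76.1% and 78.7%, close to those in the members, and the distances were 96.5, 148.5 and 221 bp. NR2F2 and RXRG peaks there were wider, with a median NR2F2 peak of 432 bp against 377 bp in the members. SREBP1 peaks are all 485 bp wide in the list, so that their overlaps and midpoint distances are not a like measure to those of NR2F2 and RXRG. The whole NR2F2 list had a median of 303 bp.

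Relative to the width of the acetylated region, TEAD1 peaks of the members lay farther from its centre than those in regions with YY1. The distance of the TEAD1 midpoint from the centre, as a share of the distance from centre to edge, had a median of 0.488, against 0.348 in the regions with YY1. In bp the order was opposite, at 194.5 against 240 bp, the members being the narrower regions. The midpoint lay on the edge or outside the region in 390 of 2430 cases (16.05%), against 1043 of 17753 (5.88%). With these cases left out, the medians were 0.399 and 0.324. A TEAD1 peak of common width reaches past the edge of a narrow region. In the widest class, where 86.7% of the TEAD1 peaks lay wholly inside, the medians were 0.406 and 0.341, or 367.5 and 333 bp from the centre. In the third class they were 236.5 and 178 bp, in the second 152 and 97.5 bp, and in the narrowest 84 and 72.25 bp. Members with SREBP1 alone had a median of 0.411 and those with NR2F2 and RXRG 0.417, while those with TEAD1 alone had 0.528.

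**Figure D3:**
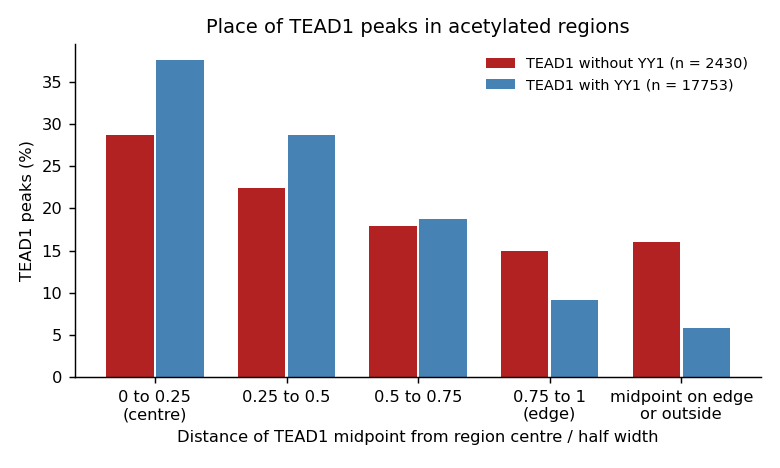
Distance of TEAD1 midpoints from the centre of the acetylated region, divided by the distance from centre to edge, for regions without YY1 (2430 pairs of TEAD1 peak and region) and with YY1 (17753). Bars are percentages of the pairs in each class. Without YY1, 28.7% lie in the innermost part and 16.05% on the edge or outside, against 37.6% and 5.88% with YY1.

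The threshold of 1 bp admitted some members with little overlap. The overlap was under 50 bp in 137 members, and 18 of these had under 10 bp. The shortest were chr2:5390086-5390404 with 1 bp, chr5:29537557-29538223 with 2 bp and chr3:145320681-145321329 with 3 bp. Of these, the first and the third had a TEAD1 peak that met a YY1 peak just outside the region, 116 and 7 bp from its edge. Just outside the threshold lay chr1:23086922-23088111, chr15:105495835-105496095 and chr3:111594887-111595393, each with a TEAD1 peak directly beside it. None of these 6 regions held NR2F2, RXRG or SREBP1. Among the 137 members with short overlap 10.2% held NR2F2, against 34.9% of the other 2268, and among the 278 regions without TEAD1 and YY1 that had a TEAD1 peak within 100 bp the share was 6.47%.

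YY1 was absent from the members by the rule but not always far away. The nearest YY1 peak lay a median of 17831 bp from the edge of the member, with the middle of the distribution from 6391 to 53915 bp. It was within 100 bp in 38 members and within 1 kb in 92. In 61 members (2.54%) the TEAD1 peak reached beyond the region and met a YY1 peak there. Acetylated regions with neither TEAD1 nor YY1 had a median gap of 16206.5 bp.

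Members far from YY1 held NR2F2 more often. In the 92 members within 1 kb of YY1 the share with NR2F2 was 13.04%. It was 24.3% in the 762 at 1 to 10 kb, 31.7% in the 1204 at 10 to 100 kb and 65.1% in the 347 at over 100 kb. RXRG was present in 5.43%, 16.01%, 19.5% and 34.0%. SREBP1 was present in 10.9%, 12.9%, 12.6% and 3.75%. Members over 100 kb from YY1 were narrower, at a median of 575 bp. Among members up to the median width of 860 bp, NR2F2 was present in 30.7% within 10 kb, 47.1% at 10 to 100 kb and 74.2% (68.5 to 79.2%) at over 100 kb. Among the wider members these shares were 15.99%, 19.2% and 41.1% (31.7 to 51.1%). RXRG was present in 15.6%, 26.4% and 38.5% of the narrower members and in 14.2%, 13.9% and 22.1% of the wider ones, so that in the latter only the share beyond 100 kb was higher. The acetylated regions with neither TEAD1 nor YY1 followed the same order for NR2F2 at lower levels, with 7.03%, 10.4%, 13.9% and 42.9%, so that this order was found with and without TEAD1.

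**Figure D4:**
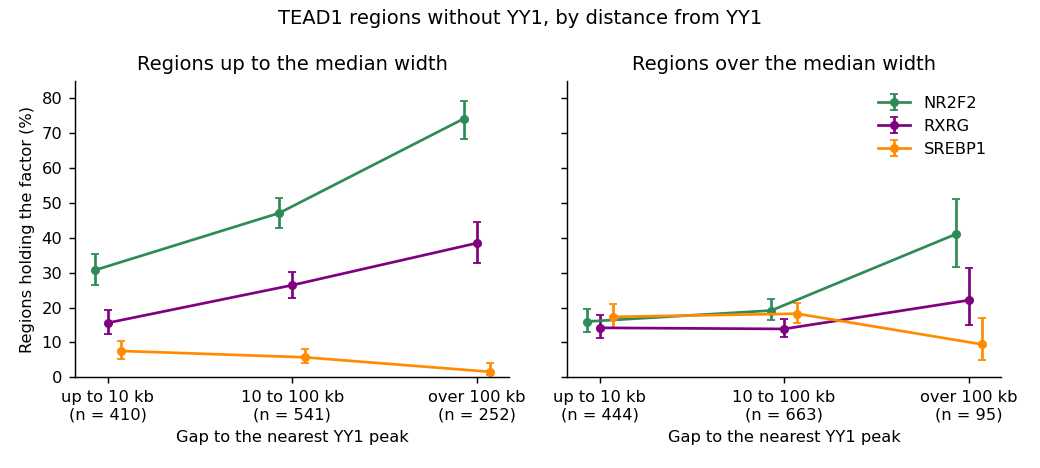
Share of acetylated TEAD1 regions without YY1 that hold NR2F2, RXRG or SREBP1, by the gap to the nearest YY1 peak, for regions up to and over the median width of 860 bp. Points are percentages of regions and bars are 95% Wilson intervals. In the narrower regions NR2F2 goes from 30.7% within 10 kb to 74.2% beyond 100 kb, and in the wider ones from 15.99 to 41.1%.

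Members with NR2F2 or RXRG often stood apart from other acetylated regions. Joining H3K27ac peaks across gaps of up to 10 kb left 398 of the 805 members with NR2F2 (49.4%) alone in their stretch, against 401 of the 1600 without NR2F2 (25.1%). For RXRG the shares were 46.5% with and 29.9% without, and for SREBP1 23.1% with and 34.5% without. This division by factor was made for the members only. Of all members, 33.2% were alone, against 25.9% of the regions with TEAD1 and YY1 and 27.5% of those with neither. A YY1 peak was found in another acetylated region of the same stretch for 988 members (41.1%), and for 26.96% of those with NR2F2.

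Members were spread over all 20 autosomes and the X chromosome. On the autosomes, members made up between 8.15% (chromosome 10) and 15.8% (chromosome 11) of the acetylated TEAD1 regions. On the X it was 93 of 374, or 24.9% (20.8 to 29.5%). The share of H3K27ac peaks with YY1 on the X, 31.8%, was within the autosomal range of 26.96 to 35.8%, and that with TEAD1, 16.6%, was near its lower end of 16.5%. NR2F2 was present in 64.5% (54.4 to 73.5%) of the 93 members on the X and in 17.8 to 43.0% on single autosomes. RXRG was present in 41.9%, against 12.0 to 26.0%, and SREBP1 in 3 members or 3.23%, against 5.81 to 20.0%. The members on the X had a median gap of 62374 bp to YY1, against 16651.5 bp on autosomes, and a median width of 651 against 868 bp. In the regions with both TEAD1 and YY1, NR2F2 was present in 60.9% on the X and 53.7% on autosomes. In those with neither it was present in 37.9 and 15.2%. In those with YY1 and no TEAD1 the shares were 37.8 and 37.2%, and in all H3K27ac peaks 41.8 and 25.2%. The share with NR2F2 was thus also higher on the X in acetylated regions at large, and X and autosomes were closer where YY1 was present.

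**Figure D5:**
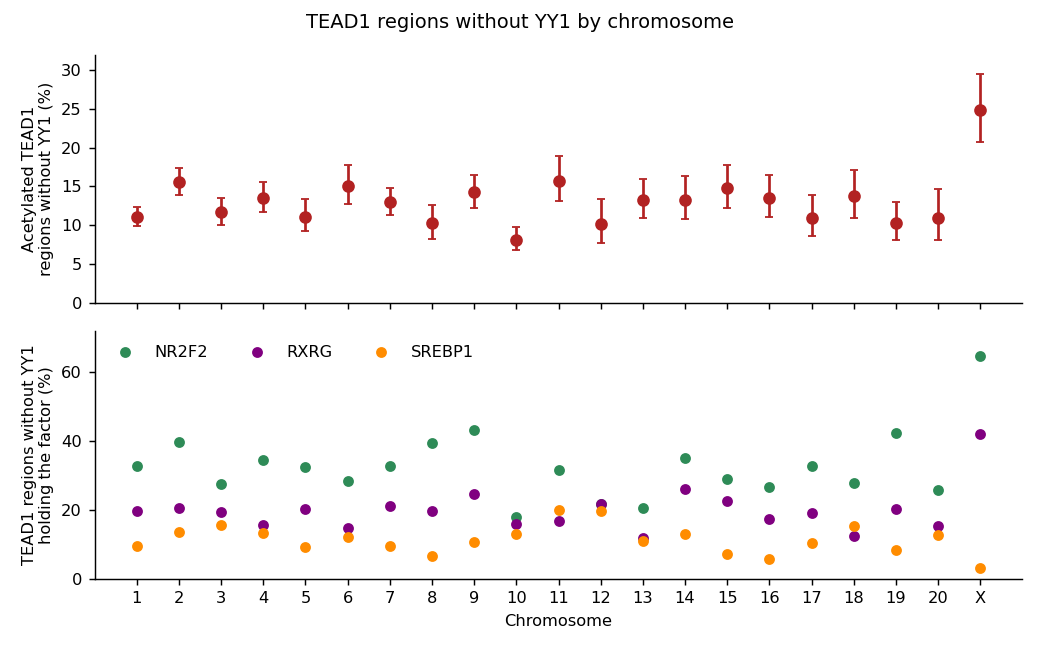
Upper panel: share of acetylated TEAD1 regions that lack YY1 on each chromosome, with 95% Wilson intervals. Lower panel: share of those regions that hold NR2F2, RXRG or SREBP1. The X chromosome lies above every autosome in the upper panel (24.9%) and in the share with NR2F2 (64.5%).

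Most members were far from each other. When members were grouped across gaps of up to 50 kb, 2010 stood alone, 322 were in groups of 2, and there were 9 groups of 3, 9 groups of 4 and 2 groups of 5. The group of 5 at chr2:216635455-216701219 spanned 65765 bp with 9 H3K27ac peaks, of which 2 held YY1 and neither of those held TEAD1. Its first member, chr2:216635455-216638522, was 3068 bp wide and held 2 TEAD1 peaks with SREBP1 on TEAD1 and no nuclear receptor. The second, chr2:216653924-216655296, held all 3 other factors and lay 1502 bp from YY1. The third, chr2:216660906-216661919, held NR2F2 on its TEAD1 peak. The fourth, chr2:216685310-216685577, was only 268 bp wide, and its TEAD1 peak of 241 bp met both NR2F2 and RXRG. The fifth, chr2:216698678-216701219, held both nuclear receptors, with NR2F2 on the TEAD1 peak of 172 bp and RXRG elsewhere in the region. This stretch thus held 4 of the 8 combinations side by side.

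The other group of 5, at chr7:22540438-22603265, held 12 H3K27ac peaks, of which 3 held YY1 and TEAD1. NR2F2 was present in 4 of its 5 members and RXRG in 2, and none held SREBP1. In chr7:22593585-22593909, 325 bp wide, both nuclear receptors lay on the TEAD1 peak of 199 bp. In the second member, chr7:22547224-22548657, TEAD1 covered only 14 bp of the edge. The longest group of 4, at chr9:6494877-6606894, held 17 H3K27ac peaks, of which 5 held YY1. NR2F2 lay on the TEAD1 peak in 3 of its 4 members, and the fourth, chr9:6605368-6606894, held TEAD1 alone, at 563 bp the widest TEAD1 peak of the group.

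The members with the widest TEAD1 peaks mostly lacked nuclear receptors. Of the 10 members with the widest TEAD1 peak, NR2F2 was present in 1, RXRG in 0 and SREBP1 in 2. Most of these TEAD1 peaks had their midpoint outside the region, and 2 of the 10 members shared a TEAD1 peak. Presence in the region is thus a limited measure here, but no NR2F2 or RXRG peak met these TEAD1 peaks outside it either. The TEAD1 peak of chr4:27972656-27973898 was 1016 bp wide, of which 166 bp lay in the region, and met SREBP1. That of chr14:86165829-86166841 was 987 bp wide and covered 864 bp of the region without any other factor. The TEAD1 peak of chr11:48953110-48955340, 968 bp, lay wholly inside a region of 2231 bp that was alone in its stretch, 30078 bp from the next H3K27ac peak and 34075 bp from YY1, and SREBP1 lay on it. In chr15:43899000-43901700 a TEAD1 peak of 777 bp sat close to the centre of a region of 2701 bp with no other factor. Of the 10, chr11:47368656-47369168 and chr2:167061477-167062248 had a TEAD1 peak that met YY1 outside the region, at gaps of 231 and 170 bp.

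Of the 5 widest members 2 held a nuclear receptor. The widest, chr8:45779032-45783901, was 4870 bp and held a TEAD1 peak of 253 bp with no other factor, 36991 bp from YY1. The next, chr10:17153067-17157405, was 4339 bp, also with TEAD1 alone. The third, chr1:142489694-142493867, was 4174 bp wide and held SREBP1 on the TEAD1 peak and NR2F2 elsewhere. Further down the same chromosome, chr1:142810417-142814355 (3939 bp) held RXRG apart from a TEAD1 peak at its edge. Of the 25 members that tied at 2 TEAD1 peaks, the 5 widest ran from 3666 to 2981 bp. Among these, chr19:38775111-38778567 held NR2F2 on TEAD1 and chrX:15737432-15740471 held both nuclear receptors on it. The widest, chr15:87840704-87844369, held SREBP1 on TEAD1.

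All 3 other factors were present in 7 members. In chrX:114859036-114859415 (380 bp) and chr11:37411511-37411890 (380 bp) they all lay on the TEAD1 peak, which was 364 bp wide in the first and 208 bp in the second. In the remaining 5, from 1373 to 2337 bp wide, RXRG lay away from TEAD1. These were chr2:115004-116523, chr2:216653924-216655296, chr19:382336-384420, chr9:83110638-83112312 and chr12:33227-35563. NR2F2 lay on TEAD1 in 3 of these 5, and SREBP1 in 4.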

How the data were processed

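Peaks were taken as deposited, 1 list per target, as chromosome, start and end in bp on rn5. Tools in the submitters' processing notes are Bowtie2, MACS2, deepTools, bedtools and bcl2fastq 2.20.0.422. Their roles, the call thresholds and any controls were not given in the sources used here. Peaks of the deposited SREBP1 list are all 485 bp wide and all carry 1 identical score, which was left unused. Mitochondrial peaks were left out (9 of TEAD1, 9 of YY1, 2 of H3K27ac, 13 of NR2F2, 16 of RXRG). The TEAD1, YY1, RXRG and SREBP1 lists hold placed chromosomes only, while 164 H3K27ac peaks lie on unplaced sequences and could not be members. Overlap was at least 1 bp, and the member set was the same by bedtools 2.31.1 (2405 regions). The code was tested on simulated data. Gaps are bp between edges. Motif shares and nearest genes were planned only for an rn5 genome and were not run. Regions were named by fixed rules: the 10 with the widest TEAD1 peak, the 5 widest, the 5 with the most TEAD1 peaks (ties by width), up to 10 with all 3 other factors, the 3 on each side of the threshold and the 3 longest groups. The members and rules were chosen with earlier results of these data known. The division by gap to YY1, the X against autosomes, the TEAD1 width classes and the place of TEAD1 with edge cases left out were chosen after values were seen. Python 3.11.15, NumPy 2.4.6, pandas 2.3.3, SciPy 1.17.1 and Matplotlib 3.10.9 were used.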

Additional observations from a re-analysis of the deposited data

How the results depend on the processing

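Of 86 recomputed values under other settings, 58 stayed within the 95% interval of the original value (within 1.5 times for the number of regions). For medians this interval was taken from the ranked values by the binomial distribution. Requiring YY1 to be absent within 1 kb and joining H3K27ac peaks within 1 kb moved none of them. Nor did keeping autosomes only, which was chosen after the data were seen. Keeping placed chromosomes only could move none, because no member lay on an unplaced sequence. Its 10 values are counted among the 58 and say nothing on stability. With TEAD1 peaks wider than their median all moved: 702 regions, NR2F2 in 20.8%, RXRG in 13.4%, SREBP1 in 13.7%, none of the 3 in 64.5%, TEAD1 on NR2F2 in 19.8% and on RXRG in 11.1%, a region width of 1017.5 bp, a TEAD1 width of 384 bp and a relative distance of TEAD1 from the centre of 0.511. With overlap of at least 50% the region width was 939 bp and the relative distance 0.413, against 0.488. By midpoints they were 944.5 bp and 0.411, the TEAD1 width 228 bp and TEAD1 on RXRG 13.1%. Within the first, second and widest width classes NR2F2 was in 46.4, 48.9 and 15.0%, RXRG in 17.1, 29.5 and 12.7% and SREBP1 in 4.81, 5.52 and 20.2%. No paired analysis was possible because every target is a single library. Without read depths, the part of sequencing depth in these counts was not tested. No control library for CUT&RUN was analysed here, so that background calls cannot be told apart from binding.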

Other observations

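TEAD1 peaks without YY1 were also found outside acetylated chromatin. There were 4334 outside H3K27ac that met no YY1 peak, and 1888 that lay on one. In the regions described above there were 2429, of which 61 met YY1 outside the region, so that the counts follow different definitions. Of the 4334, 431 or 9.94% met NR2F2, 132 or 3.05% met RXRG and 294 or 6.78% met SREBP1. Of the 2429, 746 or 30.7% met NR2F2, 366 or 15.1% met RXRG and 233 or 9.59% met SREBP1. TEAD1 peaks on YY1 outside H3K27ac met NR2F2 in 17.6%, RXRG in 5.40% and SREBP1 in 17.0%. No test was made of these shares, and the acetylated TEAD1 peaks were wider (median 234 against 205 bp).

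Neighbouring members within 50 kb of each other formed 214 pairs. NR2F2 was present in both members of 49 pairs, in a single member of 51 and in neither of 114. For RXRG these numbers were 11, 60 and 143, and for SREBP1 7, 38 and 169. Both members held TEAD1 alone in 74 pairs, a single one in 75 and neither in 65. Of all members, 33.5% held NR2F2, 20.0% RXRG, 11.4% SREBP1 and 53.1% TEAD1 alone. How many such pairs these shares alone would give was not tested.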
